A study of Mus musculus with 12 samples.

Results

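Mouse embryonic stem (ES) cells of strain 129 were grown as a monolayer and compared between day 3 and day 1 of differentiation on whole mouse genome expression arrays. Members are the 4 arrays labelled ML day 1 (2 arrays) or ML day 3 (2 arrays), of 12 arrays in the series, and the comparison covers 17729 genes with at least 1 probe above background. The series also holds undifferentiated cells and cells differentiated as embryoid bodies (EB) for 1, 3 or 4 days, 2 arrays each. All 12 arrays share the strain and the ES cell origin. The titles of the undifferentiated arrays name LIF (leukaemia inhibitory factor). Medium, any other agent and any change of genotype are not given in the sources used here. In each group 1 array carries RNA labelled clone #1 and the other RNA labelled clone #2, called array 1 and array 2 below. The labels do not say whether a clone is a separate line or a separate culture, and the series' design text speaks of 2 independent experiments. The p-values therefore rest on the spread between the arrays of a group, which may be technical. For each gene that spread is pooled over all 6 groups and assumed equal in them, so it is not that of the day 3 arrays alone. The 4 monolayer arrays lay on 1 slide and were scanned on 1 day.

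ES cells keep the state of the preimplantation (naive) epiblast through a network of transcription factors that includes Nanog, Esrrb, Klf4 and Nr5a2. When self-renewal signals are withdrawn they pass through a formative state, with Fgf5 and Otx2, toward the primed epiblast. Gastrulation follows, when Wnt, Nodal and FGF signals induce the primitive streak, whose cells express T, Eomes and Mixl1 and give rise to mesoderm and definitive endoderm. The integrated stress response is a separate program in which the factor Atf4 switches on genes of amino acid supply and protein quality control.

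The comparison turns on 4 marker genes: Vldlr, which encodes the very low density lipoprotein receptor, the growth factor gene Fgf8, the T-box gene T (brachyury), and the nuclear receptor gene Nr5a2. The first 30 bases of the 60-base array probe that measured each are given to identify what was read, with the position of the whole probe in build mm9 as the array files state it (no gene annotation of that build was used here). Vldlr lay at chr19:27324042-27324101 on the plus strand, Fgf8 at chr19:45811364-45811423 on the minus strand, T at chr17:8634870-8634929 on the plus strand and Nr5a2 at chr1:138740903-138740962 on the minus strand.
Vldlr: attgtaaactttttcaatggttgggacaat
Fgf8: ggcacagcaaaggggaggggctggggagct
T: taagagcaataatacatgtcctataatcat
Nr5a2: atgcaaagacagtgattctgcatatggcct

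Levels are log2 of the processed signal minus the 75th percentile of the same array, and each pair of values below gives array 1 first. Vldlr stood at -3.63 and -3.79 at day 1 and 3.17 and 0.54 at day 3. Both day 3 arrays lay far above both day 1 arrays, but array 1 exceeded array 2 by 2.63. The change was 5.57 ± 0.73, adjusted p = 0.00276 (day 3 minus day 1, log2, ± SE from limma across all genes, Benjamini-Hochberg adjusted), or 6.88 on day 3 array 1 and 4.25 on array 2 against the day 1 mean. Fgf8 stood at -0.69 and 0.01 at day 1 and 4.13 and 4.31 at day 3, which is 23.7-fold higher at day 3 (4.56 ± 0.46, adjusted p = 0.00101). T stood at -3.68 and -3.33 at day 1 and 1.08 and 0.84 at day 3, which is 22.1-fold higher (4.46 ± 0.63, adjusted p = 0.00377). The day 3 arrays were close to each other for both genes and well clear of the day 1 arrays. Nr5a2, which acts beside Esrrb in the naive network, stood at 1.88 and 1.81 at day 1 and -1.48 and -2.16 at day 3 and fell (-3.66 ± 0.42, adjusted p = 0.00162). The calls of Vldlr, Fgf8, T and Nr5a2 held in every alternative run.

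**Figure D1:**
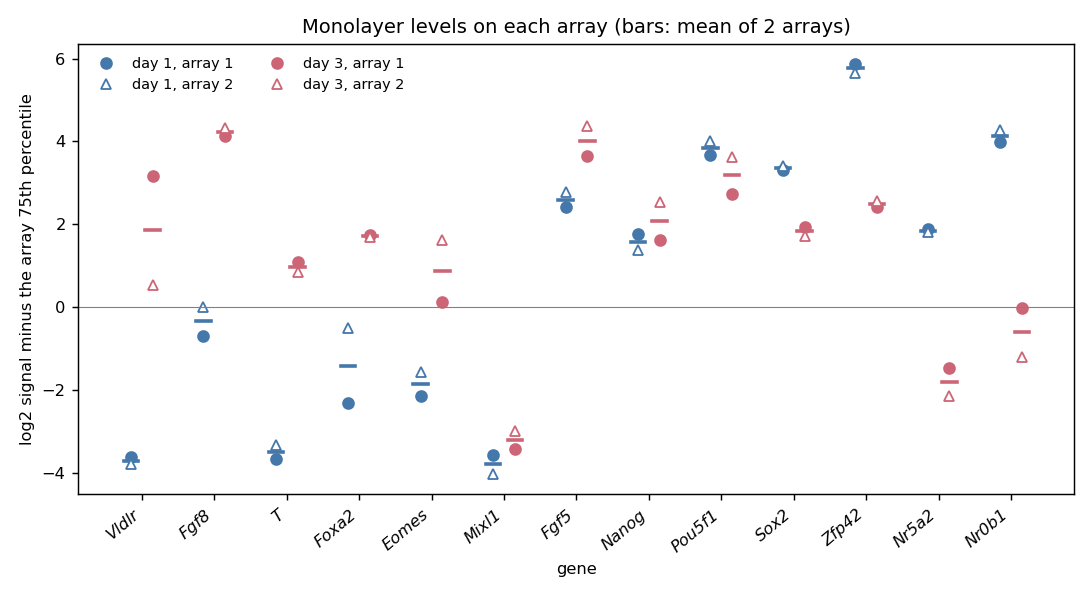
Level of 13 genes on each monolayer array (y axis: log2 level relative to the 75th percentile of its array; x axis: gene; circles are array 1, triangles array 2, blue day 1, red day 3, bars the mean of 2 arrays). Days are compared within a gene: Vldlr, Fgf8, T, Foxa2 and Eomes are higher on both day 3 arrays, Sox2, Zfp42, Nr5a2 and Nr0b1 lower, and Mixl1, Fgf5, Nanog and Pou5f1 were not called.

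Limma called 2202 genes (12.4% of those tested) at an adjusted p under 0.05. Of these 1023 were higher at day 3 (5.77%) and 1179 lower (6.65%). The balance turned with the scaling: quantile normalization gave 1073 higher and 940 lower, the authors' values 1071 and 939, and normexp background correction 997 and 1399. 28 of the called genes were not well above background on any of the 4 arrays and passed the filter through other groups. For 10295 genes (58.1%) the arrays of the 2 days did not overlap, called or not. The median change of all genes was -0.14, and quantile normalization moved it by 0.10 to -0.03, so list medians are also given relative to it. The count depended on which arrays entered. Where 1 array is left out, the remaining array of that day is assumed to vary like the other groups. It was 947 without day 1 array 1, 378 without day 1 array 2, 879 without day 3 array 1 and 4757 without day 3 array 2, and 670 with the 4 arrays fitted alone. With any 1 monolayer array left out, 342 calls were kept, 118 higher and 224 lower. The share of spots well above background lay between 57.9% and 60.6% on the 4 arrays, and the 75th percentile of intensity between 419 and 593.

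The day 3 arrays differed from each other more than the day 1 arrays did. They were at least 2-fold apart for 3238 genes (18.3%), against 736 (4.15%) for day 1 and between 601 and 2115 for the other groups. Among genes well above background on both arrays the counts were 2570 of 15951 (16.1%) at day 3 and 314 of 15800 (1.99%) at day 1. Across genes, which are not independent replicates, the Pearson correlation between the arrays was 0.971 at day 3 and 0.991 at day 1. Day 3 array 1 lay at least 2-fold from the day 1 mean for 5064 genes (28.6%), 2321 up (13.1%) and 2743 down (15.5%). Array 2 did so for 2984 genes (16.8%; 1469 up, 8.29%, and 1515 down, 8.55%). Both arrays were at least 2-fold higher for 1009 genes and at least 2-fold lower for 1006. Opposite 2-fold changes were seen for 24 genes that were up on array 1 and 12 that were up on array 2. Of the called genes, 406 (18.4%) were at least 2-fold apart between the day 3 arrays. Array 1 lay further from day 1 for 743 of the 1023 higher calls and for 842 of the 1179 lower calls.

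**Figure D2:**
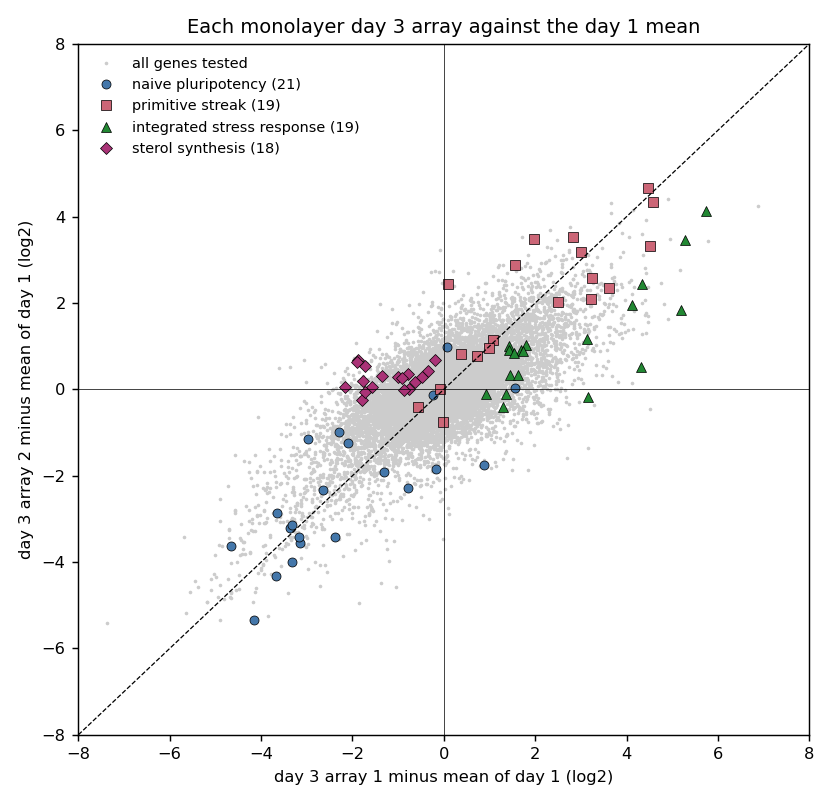
Change of each day 3 array from the day 1 mean (x axis: day 3 array 1, y axis: day 3 array 2, both log2; grey points are all genes tested, coloured points 4 gene lists, the dashed line marks equal change). Both axes share the day 1 mean. Primitive streak and naive genes lie on both sides of the line, all 19 integrated stress response genes below it and all 18 sterol synthesis genes above it.

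Of the 19 primitive streak genes 12 rose and none fell, beside 5.77% of all genes higher and 6.65% lower. Their median change was 2.27 (2.40 relative to all genes). The median was 1.97 on day 3 array 1 and 2.36 on array 2. Besides T and Fgf8, the largest increase was that of Mesp1, a basic helix-loop-helix factor of the earliest mesoderm, at -5.12 and -3.81 at day 1 and 0.05 and -1.15 at day 3 (3.91 ± 0.68, adjusted p = 0.00825). The zinc finger gene Sp5 stood at 1.17 and 0.79 at day 1 and 4.00 and 4.17 at day 3 (3.10 ± 0.75, adjusted p = 0.0292), with both day 3 arrays level and both day 1 arrays far below. The organizer genes Gsc (3.18 ± 0.59, adjusted p = 0.0112) and Lhx1 (2.99 ± 0.56, adjusted p = 0.0117) also rose, Lhx1 by 3.61 on day 3 array 1 and 2.36 on array 2. Eomes, the T-box factor of the anterior streak, stood at -2.14 and -1.57 at day 1 and 0.11 and 1.62 at day 3 (2.72 ± 0.59, adjusted p = 0.0195), and here array 2 was the higher day 3 array. The growth factor gene Fgf17 rose by 1.12 ± 0.26 (adjusted p = 0.0248).

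Another 7 streak genes were not called. Mixl1, a homeobox factor of the streak, stood at -3.57 and -4.03 at day 1 and -3.43 and -2.98 at day 3 (0.59 ± 0.43, adjusted p = 0.379), slightly higher on both day 3 arrays. No call was made for Mesp2 (-0.49 ± 0.41, adjusted p = 0.455), a partner of Mesp1 in segmentation, for Wnt3a (-0.38 ± 0.59, adjusted p = 0.696), the Wnt ligand of the posterior streak, and for Tbx6 (0.97 ± 0.69, adjusted p = 0.371), Snai1 (0.75 ± 0.39, adjusted p = 0.232) and Nkx1-2 (-0.03 ± 0.34, adjusted p = 0.963). Wnt8a stood at -1.96 and -1.17 at day 1 and -1.47 and 0.88 at day 3, high on day 3 array 2 alone (1.27 ± 0.93, adjusted p = 0.387). With 1 array left out, higher calls in the streak list numbered 4 without day 1 array 1, 4 without day 1 array 2, 6 without day 3 array 1 and 10 without day 3 array 2. These calls were lost without day 1 array 1 for Mesp1, Sp5, Gsc, Lhx1, Eomes and Fgf17 (adjusted p = 0.0522 to 0.142), without day 1 array 2 for Sp5, Gsc, Lhx1, Eomes and Fgf17 (adjusted p = 0.0644 to 0.174). The same happened without day 3 array 1 for Mesp1, Sp5, Lhx1 and Fgf17 (adjusted p = 0.0595 to 0.109), without day 3 array 2 for Sp5 (adjusted p = 0.0559). Calls also ended with the 4 arrays fitted alone for Eomes and Fgf17, with no filter on dim probes for Sp5, with the scan day 2 arrays alone for Sp5.

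Promoters of 2 called streak genes that are also Wnt responsive are shown because both hold the core letters of the TCF/LEF motif, CTTTGA, through which Wnt signals reach their target genes. The sequences are the 250 bases before the transcription start (RefSeq, GRCm38.p6), 5′ to 3′ on the gene's strand, with the motif on either strand in capitals. Sp5 lies at chr2:70474673-70474922 on the plus strand, with matches that begin 204 and 104 bases before the start. Mesp1 lies at chr7:79793591-79793840 on the minus strand, with matches 72 and 31 bases before the start.
Sp5: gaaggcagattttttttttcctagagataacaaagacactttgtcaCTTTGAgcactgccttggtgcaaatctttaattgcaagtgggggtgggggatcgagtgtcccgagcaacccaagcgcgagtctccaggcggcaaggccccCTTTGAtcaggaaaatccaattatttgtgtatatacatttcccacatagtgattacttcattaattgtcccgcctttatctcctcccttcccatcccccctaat
Mesp1: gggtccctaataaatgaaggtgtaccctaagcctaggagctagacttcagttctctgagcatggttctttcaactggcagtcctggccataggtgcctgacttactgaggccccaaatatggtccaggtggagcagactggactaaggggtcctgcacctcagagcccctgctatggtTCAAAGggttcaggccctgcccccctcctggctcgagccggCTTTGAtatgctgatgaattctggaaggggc
Over windows that also take in 50 bases after the start, the motif was found in 4 of the 9 called streak genes with a promoter entry. Among all listed streak genes with an entry it was found in 4 of 14 (28.6%), against 18.2% of 27025 genes. The T-box letters AGGTGTGA were found in 1 of the 9 called and 1 of the 14 listed streak genes (1.48% of all genes). The Foxh1 letters AATCCACA were found in none of the 9 and 1 of the 14 (1.01%). Of the 8 naive genes called lower with an entry, 2 held the octamer ATGCAAAT, as did 2 of the 12 listed (1.97% of all genes). None of the 8 or the 12 held the Esrrb and Nr5a2 letters TCAAGGTCA (0.466%). Other lists held some of these letters too. CTTTGA was found in 1 of the 8 called naive genes and in 1 of the 11 called integrated stress response genes. The T-box letters were found in 1 of those 11, and the octamer in 1 of the 9 called streak genes. A match is a description of the letters only.

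Wnt ligands moved beside these genes. Of 16 Wnt ligands and receptors 6 rose and 1 fell, beside 5.77% of all genes higher and 6.65% lower (median 0.98, 1.12 relative to all genes). Wnt3, the ligand that starts streak formation in the epiblast, stood at 0.72 and -0.04 at day 1 and 2.84 and 2.38 at day 3 (2.27 ± 0.44, adjusted p = 0.0134). Wnt5b rose by 2.08 ± 0.36 (adjusted p = 0.0086) and Wnt11, a ligand of the noncanonical branch, by 2.76 ± 0.50 (adjusted p = 0.00966). The rise of Wnt11 was 3.54 on day 3 array 1 and 1.98 on array 2. Wnt6 also rose (2.56 ± 0.66, adjusted p = 0.0371), with 3.84 on day 3 array 1 and 1.28 on array 2. Of 16 Wnt targets and antagonists 4 rose and 1 fell. Axin2, a negative feedback target read as a gauge of the pathway, stood at -1.12 and -1.15 at day 1 and -0.13 and 0.61 at day 3 (1.38 ± 0.31, adjusted p = 0.0215), and Nkd1, another feedback gene, at -0.93 and -0.69 at day 1 and 0.88 and 1.16 at day 3 (1.82 ± 0.41, adjusted p = 0.0219). Notum, which encodes a secreted enzyme that inactivates Wnt proteins, went the other way, at -1.25 and -0.64 at day 1 and -4.73 and -5.22 at day 3 (-4.03 ± 0.56, adjusted p = 0.00358). Lef1 stood at 0.97 and 1.87 at day 1 and -1.61 and -0.04 at day 3 and was not called (-2.25 ± 0.71, adjusted p = 0.0693). Lef1 was called lower with normexp (adjusted p = 0.0279), with a trended prior (adjusted p = 0.0456), with the scan day 2 arrays alone (adjusted p = 0.0439) and without day 3 array 2 (adjusted p = 0.0272). The call of Notum held in every alternative run that tested it, and the strict filter on dim probes left it out. With 1 array left out, calls ended without day 1 array 1 for Wnt11, Wnt6, Axin2 and Nkd1 (adjusted p = 0.0537 to 0.104), without day 1 array 2 for Wnt3, Wnt5b, Wnt11, Wnt6, Axin2 and Nkd1 (adjusted p = 0.0633 to 0.233). Others were lost without day 3 array 1 for Wnt3, Wnt6 and Nkd1 (adjusted p = 0.0739 to 0.0865). Other alternatives that ended calls did so with the 4 arrays fitted alone for Wnt11, Wnt6 and Axin2, with no filter on dim probes for Wnt6, with the scan day 2 arrays alone for Wnt6.

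Among derivatives of the streak, 3 of 10 definitive endoderm genes rose, Gsc among them, and 1 of 18 mesoderm genes did, beside 5.77% of all genes. Cer1, which encodes a secreted Nodal, Wnt and BMP antagonist, was not well above background on either day 1 array and stood at -7.12 and -6.93 at day 1 and -2.59 and -3.10 at day 3, at least 4.59-fold higher at day 3 (adjusted p = 0.00345). Folds written as at least take, for each dim array, the dimmest probe that still counted as above background as the lower level. Foxa2, a forkhead factor of endoderm and node, stood at -2.33 and -0.51 at day 1 and 1.74 and 1.68 at day 3 (3.13 ± 0.68, adjusted p = 0.0203), and the 2 day 1 arrays were far apart. Sox17, the other defining factor of endoderm, stood at -3.75 and -3.68 at day 1 and -1.85 and -3.61 at day 3 and was not called (0.98 ± 0.52, adjusted p = 0.234). Sox17 was called higher without day 3 array 2 (adjusted p = 0.0134). The mesoderm gene that rose was the forkhead gene Foxf1, at least 3.02-fold higher (adjusted p = 0.0241) with both day 1 arrays not well above background. Pdgfra, a receptor of mesoderm, stood at -6.93 and -6.40 at day 1 and -4.01 and -5.13 at day 3, with neither day 1 array well above background (adjusted p = 0.1), and Kdr, the VEGF receptor of blood and vessel precursors, at -2.49 and -1.95 at day 1 and -0.20 and -2.88 at day 3 (0.68 ± 0.96, adjusted p = 0.668). Kdr was highest on day 3 array 1 and lowest on array 2. Of these mesoderm genes 4 (Hand2, Tbx20, Meox1 and Isl1) were not well above background on any of the 4 arrays. Of the genes called above, some lost the call without day 1 array 1 for Foxa2 and Foxf1 (adjusted p = 0.0909 to 0.107), without day 1 array 2 for Foxf1 (adjusted p = 0.137). Calls were likewise lost without day 3 array 1 for Foxa2 and Foxf1 (adjusted p = 0.0918 to 0.112). Further losses came with the 4 arrays fitted alone for Foxa2, with normexp background correction for Cer1 and Foxf1, with the scan day 2 arrays alone for Foxf1.

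Most naive pluripotency genes fell. Of 21 measured 15 fell and none rose, beside 6.65% of all genes lower, with a median of -2.49 (-2.35 relative to all genes), or -2.65 on day 3 array 1 and -2.33 on array 2. Nr0b1, an orphan nuclear receptor that binds Oct4, stood at 3.98 and 4.28 at day 1 and -0.02 and -1.20 at day 3 (-4.74 ± 0.73, adjusted p = 0.00532). Jam2, a junctional adhesion molecule, stood at 1.77 and 1.78 at day 1 and -1.90 and -2.54 at day 3, 16-fold lower at day 3 (-4.00 ± 0.34, adjusted p = 0.000737). Zfp42, the Rex1 gene used as a naive reporter, stood at 5.86 and 5.66 at day 1 and 2.40 and 2.56 at day 3, 9.7-fold lower (-3.28 ± 0.41, adjusted p = 0.00235). Fbxo15 fell by a similar amount (-3.30 ± 0.40, adjusted p = 0.00194), as did Tcl1, an Akt coactivator (-3.23 ± 0.37, adjusted p = 0.00161), and Esrrb (-2.90 ± 0.60, adjusted p = 0.0169). Gbx2, a homeobox target of Stat3, stood at 0.19 and 1.28 at day 1 and -3.92 and -2.90 at day 3 (-4.14 ± 0.78, adjusted p = 0.0113). The fall was seen on both day 3 arrays for each of these genes.

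The 6 naive genes not called were Nanog, Klf2, Klf4, Klf5, Tbx3 and Tfcp2l1. Nanog stood at 1.75 and 1.37 at day 1 and 1.63 and 2.54 at day 3 (0.52 ± 0.37, adjusted p = 0.369), and its days overlapped. Klf2 changed by -0.18 ± 0.21 (adjusted p = 0.598), but with the mean of its probes it changed by -1.47 and was called lower (adjusted p = 0.0320). Klf4 stood at 2.68 and 2.94 at day 1 and 2.65 and 0.97 at day 3 (-1.0 ± 0.45, adjusted p = 0.172), Klf5 at 2.19 and 2.04 at day 1 and 3.66 and 2.14 at day 3 (0.79 ± 0.44, adjusted p = 0.261) and Tbx3 at 0.08 and -0.71 at day 1 and 0.57 and -2.07 at day 3 (-0.43 ± 0.87, adjusted p = 0.768). For these 3 genes day 3 array 2 was lower than array 1 by more than 1 on the log2 scale. Tfcp2l1 was lower on both day 3 arrays (-0.79 and -2.29) but did not pass (adjusted p = 0.0683). Klf4 was called lower without day 3 array 1 (adjusted p = 0.0136). Klf5 was called higher without day 3 array 2 (adjusted p = 0.0129). Tfcp2l1 was called lower with normexp (adjusted p = 0.0478), with the mean of probes (adjusted p = 0.0264), with a trended prior (adjusted p = 0.046) and without day 3 array 1 (adjusted p = 0.0244). With 1 array left out, lower naive calls numbered 8 without day 1 array 1, 7 without day 1 array 2, 11 without day 3 array 1 and 15 without day 3 array 2. The calls of Jam2, Zfp42, Fbxo15 and Tcl1 held in every alternative run. The test was not passed without day 1 array 1 for Esrrb (adjusted p = 0.0785), without day 1 array 2 for Nr0b1, Esrrb and Gbx2 (adjusted p = 0.0521 to 0.0999). The same happened without day 3 array 1 for Gbx2 (adjusted p = 0.0768).

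Core pluripotency genes, which both naive and primed cells need, held 3 lower calls (3 of 11, median -0.54, or -0.41 relative to all genes). Of all genes 5.77% were called higher and 6.65% lower. Sox2 stood at 3.32 and 3.40 at day 1 and 1.94 and 1.72 at day 3, 2.88-fold lower at day 3 (-1.53 ± 0.35, adjusted p = 0.0237). Pou5f1, which encodes Oct4, stood at 3.67 and 4.00 at day 1 and 2.73 and 3.63 at day 3 and was not called (-0.66 ± 0.34, adjusted p = 0.232). Pou5f1 was called lower without day 3 array 2 (adjusted p = 0.0431). Utf1 fell (-2.26 ± 0.55, adjusted p = 0.0289, array values -3.03 and -1.50), as did Rest, a repressor of neural genes (-0.93 ± 0.20, adjusted p = 0.0209). Pou5f1, Sox2, Nanog and Zfp42 were well above background on all 4 arrays. Among 14 genes of leukaemia inhibitory factor (LIF) and Stat3 signalling 3 rose and 2 fell. The LIF receptor gene Lifr fell (-2.33 ± 0.43, adjusted p = 0.0107, array values -3.12 and -1.53). Socs3, the feedback inhibitor that Stat3 induces, stood at 1.50 and 1.00 at day 1 and 2.23 and 2.39 at day 3 and rose (1.06 ± 0.27, adjusted p = 0.0369). Calls ended without day 1 array 1 for Sox2, Utf1, Rest, Lifr and Socs3 (adjusted p = 0.0596 to 0.119), without day 1 array 2 for Sox2, Utf1, Rest, Lifr and Socs3 (adjusted p = 0.0679 to 0.257). Others were lost without day 3 array 1 for Sox2, Utf1, Rest and Socs3 (adjusted p = 0.0598 to 0.149), without day 3 array 2 for Socs3 (adjusted p = 0.0652). Calls also ended with the 4 arrays fitted alone for Utf1, Rest, Lifr and Socs3, with quantile normalization for Rest, in the authors' values for Rest, with no filter on dim probes for Utf1 and Socs3, with the scan day 2 arrays alone for Utf1.

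Of 16 formative and primed epiblast genes 1 rose and 4 fell, beside 5.77% of all genes higher and 6.65% lower (median -1.0, -0.86 relative to all genes). Fgf5, the ligand that marks the early epiblast, stood at 2.41 and 2.78 at day 1 and 3.64 and 4.38 at day 3, higher on both day 3 arrays but not called (1.42 ± 0.58, adjusted p = 0.139). Otx2, a homeobox factor of the same state, stood at 1.85 and 2.25 at day 1 and 1.00 and 1.55 at day 3, lower on both (-0.78 ± 0.28, adjusted p = 0.101). Otx2 was called lower without day 3 array 2 (adjusted p = 0.0364). Tcf15 fell (-3.02 ± 0.60, adjusted p = 0.0138, array values -3.87 and -2.16), and the claudin gene Cldn6, a tight junction component, rose (1.45 ± 0.27, adjusted p = 0.0108). Of 9 genes for enzymes and factors that set or remove DNA methylation 5 fell, beside 6.65% of all genes, and none rose (median -1.24, -1.11 relative to all genes). The median was -1.80 on day 3 array 1 and -0.63 on array 2, and with 1 array left out the lower calls numbered 2 without day 1 array 1, 1 without day 1 array 2, 2 without day 3 array 1 and 7 without day 3 array 2. The de novo methyltransferase gene Dnmt3a stood at 2.89 and 3.63 at day 1 and 0.12 and 1.72 at day 3 (-2.34 ± 0.56, adjusted p = 0.0274) and its cofactor Dnmt3l at 6.11 and 6.11 at day 1 and 4.18 and 4.35 at day 3 (-1.84 ± 0.33, adjusted p = 0.00961). Tet1, which oxidises methylcytosine, stood at 0.54 and 0.51 at day 1 and -1.36 and -0.81 at day 3 (-1.61 ± 0.23, adjusted p = 0.00403). Dnmt3b stood at 5.72 and 6.08 at day 1 and 3.72 and 5.60 at day 3 and was not called (-1.24 ± 0.55, adjusted p = 0.166). Dnmt3b was called lower without day 3 array 2 (adjusted p = 0.01). Uhrf1, which guides maintenance methylation, fell (-0.95 ± 0.26, adjusted p = 0.0452). These calls were lost without day 1 array 1 for Dnmt3a and Uhrf1 (adjusted p = 0.0605 to 0.0734), without day 1 array 2 for Tcf15, Cldn6, Dnmt3a, Dnmt3l and Uhrf1 (adjusted p = 0.0752 to 0.294). Calls were likewise lost without day 3 array 1 for Tcf15, Cldn6, Dnmt3a, Dnmt3l and Uhrf1 (adjusted p = 0.0524 to 0.197). Other alternatives that ended calls did so with the 4 arrays fitted alone for Tcf15, Cldn6, Dnmt3a, Tet1 and Uhrf1, with normexp background correction for Uhrf1, with quantile normalization for Uhrf1, in the authors' values for Uhrf1, with no filter on dim probes for Uhrf1, with the scan day 2 arrays alone for Uhrf1.

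Genes of the germ line, several of which ES cells express, fell in 5 of 12 cases with none higher (median -1.63, -1.50 relative to all genes). Of all genes 6.65% were called lower. The median was -2.15 on day 3 array 1 and -1.08 on array 2, and lower calls numbered 4 without day 1 array 1, 1 without day 1 array 2, 3 without day 3 array 1 and 6 without day 3 array 2. Tex19.1, which acts in transposon control, stood at 5.65 and 5.70 at day 1 and 1.44 and 1.91 at day 3, 16-fold lower at day 3 (-4.00 ± 0.43, adjusted p = 0.00133). The meiotic chromosome axis gene Hormad1 (-3.75 ± 0.58, adjusted p = 0.00535), the RNA-binding factor gene Dazl (-3.15 ± 0.57, adjusted p = 0.0102, array values -4.10 and -2.21) and the retinoic acid responsive gene Stra8 (-2.79 ± 0.54, adjusted p = 0.0132) also fell. Of the 5 measured genes of the 2-cell-like state, in which rare ES cells express genes of the cleavage embryo, Zscan4c (-1.48 ± 0.38, adjusted p = 0.0347) and Usp17la (-1.35 ± 0.27, adjusted p = 0.014) fell. Tcstv1 (-1.42 ± 0.42, adjusted p = 0.0567), Tcstv3 (adjusted p = 0.0792, not well above background at day 3) and Zfp352 (adjusted p = 0.76, not well above background on any of the 4 arrays) were not called, and Zscan4c shares sequence with near-identical copies. Tcstv1 was called lower with normexp (adjusted p = 0.048) and without day 3 array 2 (adjusted p = 0.0331). The call of Tex19.1 held in every alternative run. With 1 array left out, calls ended without day 1 array 1 for Zscan4c and Usp17la (adjusted p = 0.052 to 0.0671), without day 1 array 2 for Hormad1, Dazl, Stra8, Zscan4c and Usp17la (adjusted p = 0.0575 to 0.243). The same happened without day 3 array 1 for Stra8, Zscan4c and Usp17la (adjusted p = 0.0569 to 0.165). Further losses came with the 4 arrays fitted alone for Dazl, Zscan4c and Usp17la, with quantile normalization for Zscan4c, in the authors' values for Zscan4c, with no filter on dim probes for Zscan4c, with the mean of probes for Zscan4c.

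The other signalling lists are read beside the 5.77% of all genes called higher and the 6.65% called lower. Of 10 FGF ligands and receptors only Fgf8 and Fgf17 rose. Of 10 ERK feedback and ETS target genes 1 rose, Il17rd, a feedback inhibitor of FGF signalling (1.44 ± 0.24, adjusted p = 0.0066). Of 17 Nodal pathway genes 2 rose, Cer1 among them, and none fell (median 0.05). Nodal itself changed by 0.46 ± 0.33 (adjusted p = 0.376) and Lefty1 by -0.78 ± 0.68 (adjusted p = 0.471). Limma called none of the 15 BMP pathway genes, 2 of which had an unadjusted p under 0.05. Bmp2 stood at -6.62 and -7.08 at day 1 and -3.70 and -5.53 at day 3 (adjusted p = 0.0573), well above background on day 3 array 1 alone, and it was called with a trended variance prior (adjusted p = 0.0477) or without day 3 array 2 (adjusted p = 0.0129). Of 14 Notch genes 3 rose: Hes1, the main effector repressor, stood at -2.46 and -2.47 at day 1 and 0.04 and -0.52 at day 3 (2.22 ± 0.31, adjusted p = 0.00362), beside Notch3 (1.1 ± 0.29, adjusted p = 0.0394) and the feedback gene Nrarp (1.37 ± 0.37, adjusted p = 0.0436). Of 10 retinoic acid genes 1 fell, the receptor gene Rarg (-1.52 ± 0.31, adjusted p = 0.0158). Of 24 measured genes of the Hox list 2 rose (8.33%, near the 5.77% of all genes) and none fell. The homeobox gene Hoxd1 was among the 2 (at least 2.94-fold higher, adjusted p = 0.0123). The call of Hes1 held in every alternative run. Of the genes called above, some lost the call without day 1 array 1 for Notch3, Nrarp, Rarg and Hoxd1 (adjusted p = 0.0645 to 0.0855), without day 1 array 2 for Il17rd, Notch3, Nrarp and Rarg (adjusted p = 0.0614 to 0.266). Others were lost without day 3 array 1 for Notch3, Nrarp and Rarg (adjusted p = 0.0848 to 0.135), without day 3 array 2 for Notch3 and Nrarp (adjusted p = 0.052 to 0.102). Among the other settings, calls ended with the 4 arrays fitted alone for Il17rd, Notch3, Nrarp and Rarg, with normexp background correction for Nrarp and Hoxd1, with no filter on dim probes for Notch3 and Nrarp, with the mean of probes for Il17rd and Rarg. With the clone number as a replicate block, Notch3 was not called (adjusted p = 0.0538) and Nrarp was not called (adjusted p = 0.0571).

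More epithelial genes rose than fell. Of 13 measured 4 rose and 1 fell, beside 5.77% of all genes higher and 6.65% lower (median 1.22, 1.36 relative to all genes). Cldn7, a claudin of tight junctions, stood at 3.59 and 2.70 at day 1 and 5.60 and 5.28 at day 3 (2.29 ± 0.39, adjusted p = 0.00786). Crb3, an apical polarity gene, rose by 2.25 ± 0.42 (adjusted p = 0.0114), and Ocln, the occludin gene, by 2.17 ± 0.56 (adjusted p = 0.037). Grhl2, a transcription factor of the epithelial epiblast, fell (-1.39 ± 0.30, adjusted p = 0.0183). The cadherin gene Cdh1 stood at 4.86 and 4.72 at day 1 and 5.21 and 4.79 at day 3 and was not called (0.21 ± 0.25, adjusted p = 0.602), and Cdh2, which replaces it in mesenchyme, stood at -1.42 and -1.24 at day 1 and -0.39 and -1.22 at day 3 (0.53 ± 0.55, adjusted p = 0.548). Of 12 mesenchymal genes 2 rose, Zeb2 (1.88 ± 0.49, adjusted p = 0.0383, array values 2.60 and 1.16) and Mmp2 (1.21 ± 0.27, adjusted p = 0.0226). The mesenchymal median against day 1 was 0.78 on day 3 array 1 and 0.35 on array 2. Between these arrays 6 of the 12 were at least 2-fold apart, beside 18.3% of all genes. The test was not passed without day 1 array 1 for Crb3, Ocln, Grhl2 and Zeb2 (adjusted p = 0.0505 to 0.144), without day 1 array 2 for Cldn7, Crb3, Ocln, Grhl2, Zeb2 and Mmp2 (adjusted p = 0.0752 to 0.191). Calls were likewise lost without day 3 array 1 for Cldn7, Crb3, Ocln, Grhl2, Zeb2 and Mmp2 (adjusted p = 0.0513 to 0.191), without day 3 array 2 for Ocln (adjusted p = 0.0671). Calls also ended with the 4 arrays fitted alone for Crb3, Grhl2, Zeb2 and Mmp2, with normexp background correction for Zeb2, with no filter on dim probes for Ocln and Zeb2, with the scan day 2 arrays alone for Zeb2.

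**Figure D3:**
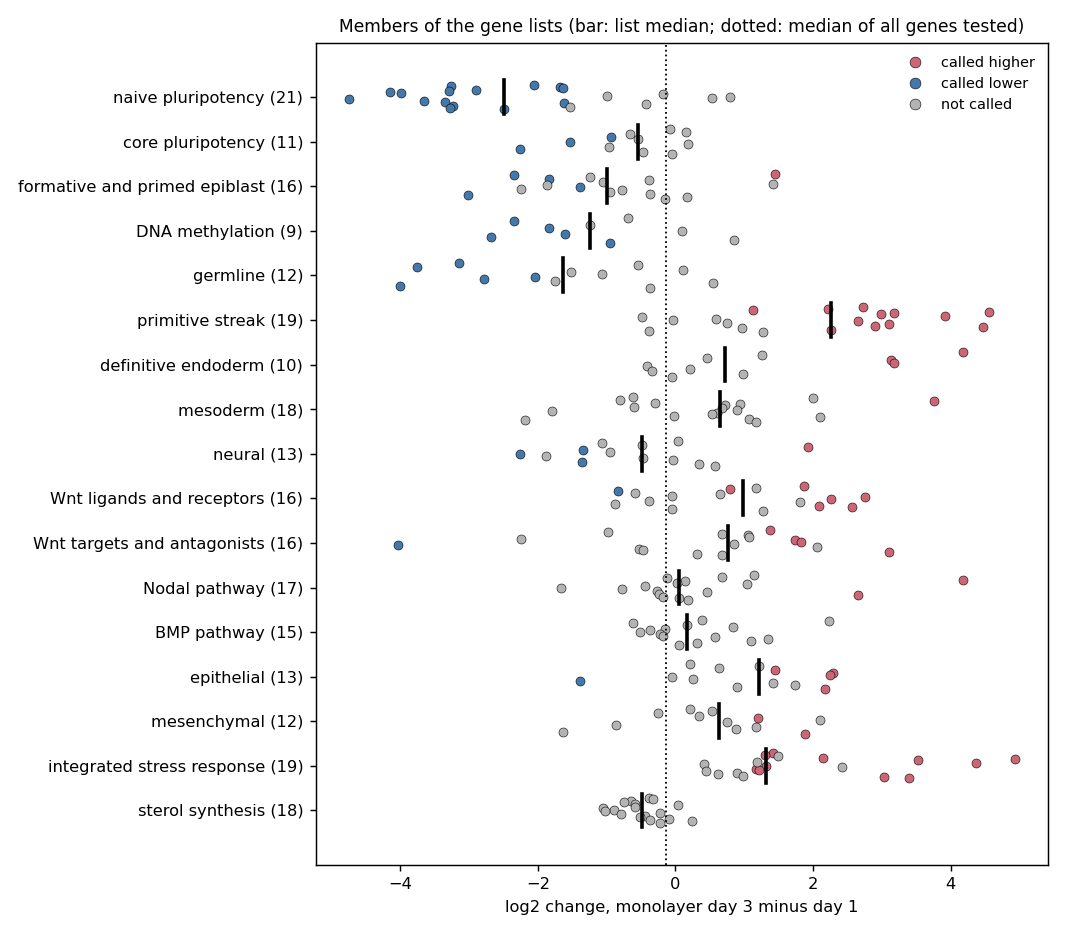
Change between monolayer day 1 and day 3 of each measured member of 17 gene lists (x axis: log2 change; y axis: list with its number of measured members; red called higher, blue called lower, grey not called by limma; bars are list medians, the dotted line the median of all genes, -0.14). Naive and germline genes lie to the left, primitive streak genes to the right, and the sterol synthesis genes hold no call.

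Among all called genes the largest fall was that of Edn2. This gene, which encodes the vasoconstrictor peptide endothelin 2, stood at 0.49 and 1.09 at day 1 and -6.59 and -4.61 at day 3 (-6.39 ± 0.74, adjusted p = 0.00162), well above background on only 1 of the 2 day 3 arrays. Epas1, the hypoxia inducible factor 2 alpha gene, stood at 3.16 and 3.38 at day 1 and -1.68 and -1.55 at day 3, 29.5-fold lower at day 3 (-4.88 ± 0.42, adjusted p = 0.000737). Myo1g, a myosin gene of blood cells, was 33.3-fold lower (-5.06 ± 0.30, adjusted p = 0.000141) and Calml4, a calmodulin-like gene, 26.3-fold lower (-4.72 ± 0.28, adjusted p = 0.000141). Besides the streak markers, the largest increases include Piezo2, a mechanically gated ion channel gene, at -4.17 and -4.43 at day 1 and 0.61 and 0.12 at day 3, 25.4-fold higher (4.67 ± 0.33, adjusted p = 0.000474). The zinc finger gene Zfp521 stood at -3.24 and -3.82 at day 1 and 0.14 and 0.57 at day 3 (3.88 ± 0.38, adjusted p = 0.000939). The forkhead gene Foxb1 was at least 4.36-fold higher (adjusted p = 0.000898) and the connexin gene Gjb2 at least 20.4-fold higher (adjusted p = 0.00584), and neither was well above background on the day 1 arrays. Gjb2 differed between the day 3 arrays, at -5.10 and -5.51 at day 1 and 0.48 and -1.87 at day 3. The calls of Edn2, Epas1, Myo1g, Calml4, Piezo2, Zfp521 and Foxb1 held in every alternative run. Calls ended without day 1 array 2 for Gjb2 (adjusted p = 0.0589).

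Genes of the integrated stress response rose, and they differed between the 2 day 3 arrays. Of 19 measured genes 11 rose, beside 5.77% of all genes, and none fell. The median was 1.31 (1.45 relative to all genes), or 1.74 on day 3 array 1 and 0.90 on array 2. All 19 were higher on day 3 array 1 than on array 2, beside 7631 of all 17729 genes, and 13 were at least 2-fold apart, beside 18.3% of all genes. The median difference between the arrays was 1.48 at day 3 and -0.01 at day 1, where 9 of 19 were higher on array 1. In the other groups, those higher on array 1 numbered 12 of 19 in undifferentiated cells, 11 at EB day 1, 13 at EB day 3 and 1 at EB day 4. The median difference at EB day 4 was -0.68, with 3 genes at least 2-fold apart. Chac1, which encodes a glutathione degrading enzyme, stood at -0.03 and 0.13 at day 1 and 5.80 and 4.17 at day 3 (4.94 ± 1.13, adjusted p = 0.0242). Ddit3, the Chop factor of the terminal stress response, stood at -1.73 and -2.67 at day 1 and 3.00 and -0.36 at day 3 (3.52 ± 0.92, adjusted p = 0.038), far higher on array 1. Trib3, a pseudokinase induced by Atf4, stood at 0.20 and 0.18 at day 1 and 4.54 and 2.62 at day 3 (3.39 ± 0.65, adjusted p = 0.0123). Asns, which makes asparagine, stood at 5.89 and 5.91 at day 1 and 7.71 and 6.93 at day 3 (1.42 ± 0.31, adjusted p = 0.0213), and Atf4 itself at 1.92 and 2.14 at day 1 and 3.72 and 2.94 at day 3 (1.30 ± 0.35, adjusted p = 0.0419). Fgf21, a secreted hormone of the stress response, stood at -7.30 and -5.91 at day 1 and -1.33 and -3.14 at day 3, at least 7.01-fold higher (adjusted p = 0.00699) with neither day 1 array well above background. Nupr1 and Atf5 were raised on array 1 and close to day 1 on array 2. Nupr1 stood at -0.86 and -1.04 at day 1 and 3.37 and -0.42 at day 3 (2.42 ± 1.11, adjusted p = 0.178) and Atf5 at 2.05 and 1.93 at day 1 and 5.15 and 1.80 at day 3 (1.49 ± 0.92, adjusted p = 0.308). Nupr1 and Atf5 were called higher without day 3 array 2 (adjusted p = 0.0117 and 0.0118). Higher calls in the list numbered 1 without day 1 array 1, 1 without day 1 array 2, 2 without day 3 array 1 and 17 without day 3 array 2, 9 with the clone number as a replicate block and 1 with the 4 arrays alone. These calls were lost without day 1 array 1 for Chac1, Ddit3, Trib3, Asns and Atf4 (adjusted p = 0.0575 to 0.167), without day 1 array 2 for Chac1, Ddit3, Trib3, Asns and Atf4 (adjusted p = 0.086 to 0.225). Others were lost without day 3 array 1 for Chac1, Ddit3, Trib3, Asns and Atf4 (adjusted p = 0.0644 to 0.205). Further losses came with the 4 arrays fitted alone for Ddit3, Trib3, Asns, Atf4 and Fgf21, with no filter on dim probes for Ddit3 and Atf4, with the scan day 2 arrays alone for Ddit3 and Atf4. With the clone number as a replicate block, Ddit3 was not called (adjusted p = 0.0509).

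Promoters of 3 of these called genes are shown because each holds the ATF4 and C/EBP composite element, TGATGNAA on either strand (in capitals), which Atf4 binds with C/EBP partners. They are again the 250 bases before the start (RefSeq, GRCm38.p6). Chac1 lies at chr2:119350992-119351241 on the plus strand with the match 193 bases before the start, Asns at chr6:7693210-7693459 on the minus strand with the match 23 bases before, and Fgf21 at chr7:45615491-45615740 on the minus strand with the match 139 bases before.
Chac1: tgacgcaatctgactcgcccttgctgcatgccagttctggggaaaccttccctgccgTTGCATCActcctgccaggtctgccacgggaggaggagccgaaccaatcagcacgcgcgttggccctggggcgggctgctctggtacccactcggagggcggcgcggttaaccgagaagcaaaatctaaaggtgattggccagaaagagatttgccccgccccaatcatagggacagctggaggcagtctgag
Asns: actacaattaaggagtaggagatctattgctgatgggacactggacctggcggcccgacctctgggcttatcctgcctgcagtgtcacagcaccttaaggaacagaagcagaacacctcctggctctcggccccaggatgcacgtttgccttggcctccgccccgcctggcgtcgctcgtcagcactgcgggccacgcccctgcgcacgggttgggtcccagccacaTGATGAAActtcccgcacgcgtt
Fgf21: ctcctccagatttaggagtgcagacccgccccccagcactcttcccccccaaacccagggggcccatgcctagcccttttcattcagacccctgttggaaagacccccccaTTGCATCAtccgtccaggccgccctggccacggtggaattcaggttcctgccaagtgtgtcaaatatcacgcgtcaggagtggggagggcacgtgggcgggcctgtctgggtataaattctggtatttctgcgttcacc
This motif was chosen after the values were seen. With 50 bases after the start included, it was found in 4 of the 11 called genes and in 6 of the 19 listed genes with a promoter entry, against 4.51% of 27025 genes. It was also found in 1 of the 8 naive genes called lower with an entry, Nr5a2.

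Sterol synthesis genes showed the opposite order of the arrays. Limma called none of the 18, 1 of which had an unadjusted p under 0.05, while the fit without day 3 array 2, in which array 1 stands for day 3 alone, called 10 lower. All 18 were lower on day 3 array 1 than on array 2, beside 10098 of all 17729 genes. At least 2-fold apart were 12 of them, beside 18.3% of all genes. The medians against day 1 were -1.19 on day 3 array 1 and 0.28 on array 2. At day 1, 17 of 18 were also lower on array 1, beside 9389 of all 17729 genes, none of them 2-fold (median difference -0.36, against -1.41 at day 3). In the other groups, those higher on array 1 numbered 5 of 18 in undifferentiated cells, 16 at EB day 1, 5 at EB day 3 and 18 at EB day 4. None was 2-fold apart there, and the median difference at EB day 4 was 0.49. Dhcr7, which makes cholesterol from its last precursor, stood at 3.28 and 3.54 at day 1 and 1.51 and 4.04 at day 3 (-0.64 ± 0.65, adjusted p = 0.537). Fdps, which makes farnesyl diphosphate, stood at 3.90 and 4.49 at day 1 and 2.32 and 4.89 at day 3 (-0.59 ± 0.65, adjusted p = 0.571), and Idi1, an isomerase of the same route, at 4.13 and 4.48 at day 1 and 2.14 and 4.37 at day 3 (-1.05 ± 0.60, adjusted p = 0.267). Srebf2, which encodes the factor that switches the route on, stood at 4.36 and 4.50 at day 1 and 4.23 and 5.10 at day 3 (0.24 ± 0.32, adjusted p = 0.646). Dhcr7, Fdps and Idi1 were called lower without day 3 array 2 (adjusted p = 0.00775, 0.00673 and 0.00685).

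Glycolysis and hypoxia genes were mostly lower on array 1 at both days. Of 19 measured 15 were lower on day 3 array 1 and 14 on day 1 array 1, beside 10098 and 9389 of all 17729 genes. The median difference between the arrays was -0.94 at day 3 and -0.30 at day 1, 10 genes at day 3 and 1 at day 1 were at least 2-fold apart (18.3% and 4.15% of all genes), and the medians against day 1 were -0.45 on day 3 array 1 and 0.60 on array 2. In the other groups, those lower on array 1 numbered 18 of 19 in undifferentiated cells, 8 at EB day 1, 18 at EB day 3 and 10 at EB day 4. Bnip3, a mitophagy receptor induced by low oxygen, stood at 1.52 and 2.57 at day 1 and -0.55 and 2.64 at day 3 (-1.0 ± 0.86, adjusted p = 0.463), lowest on day 3 array 1. Bnip3 was called lower without day 3 array 2 (adjusted p = 0.0149). Vegfa, the vascular growth factor, stood at -2.74 and -2.71 at day 1 and 0.55 and -0.26 at day 3 and rose on both arrays (2.87 ± 0.62, adjusted p = 0.0195), beside the glucose transporter gene Slc2a3 (1.84 ± 0.45, adjusted p = 0.0317), while the phosphofructokinase gene Pfkp fell (-1.44 ± 0.31, adjusted p = 0.0185). Of 18 proliferation genes 17 were lower on array 1 than on array 2 at day 3 and 15 at day 1, with median differences of -0.45 and -0.21. At day 3, 1 was at least 2-fold apart. Between the days 1 of the 18 fell (5.56%, near the 6.65% of all genes), Ccnb1 (-0.86 ± 0.24, adjusted p = 0.0464). With 1 array left out, calls ended without day 1 array 1 for Vegfa, Slc2a3, Pfkp and Ccnb1 (adjusted p = 0.0505 to 0.081), without day 1 array 2 for Vegfa, Slc2a3, Pfkp and Ccnb1 (adjusted p = 0.114 to 0.312). Calls were likewise lost without day 3 array 1 for Vegfa, Slc2a3, Pfkp and Ccnb1 (adjusted p = 0.0983 to 0.192). Among the other settings, calls ended with the 4 arrays fitted alone for Slc2a3, Pfkp and Ccnb1, with quantile normalization for Ccnb1, in the authors' values for Ccnb1, with no filter on dim probes for Slc2a3 and Ccnb1, with the mean of probes for Slc2a3 and Ccnb1, with the scan day 2 arrays alone for Ccnb1.

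Of 18 immediate early and heat shock genes 4 rose, beside 5.77% of all genes. Array 1 was the higher for 15 of them at day 3 and for 13 at day 1, beside 7631 and 8340 of all 17729 genes, with median differences of 0.70 and 0.29. Atf3, a stress induced factor, stood at -0.95 and -1.99 at day 1 and 3.70 and 1.30 at day 3 (3.97 ± 0.73, adjusted p = 0.0105). The AP-1 genes Jun (2.04 ± 0.46, adjusted p = 0.0218, array values 2.64 and 1.45), Junb (1.79 ± 0.42, adjusted p = 0.027, array values 2.55 and 1.04) and Fos (2.14 ± 0.57, adjusted p = 0.04, array values 2.84 and 1.43) rose as well, each more on day 3 array 1. Of 13 p53 target genes 1 rose (7.69%, near the 5.77% of all genes), Pmaip1, the Noxa gene (1.39 ± 0.31, adjusted p = 0.0225), which is also known as an Atf4 target. Of the genes called above, some lost the call without day 1 array 1 for Junb, Fos and Pmaip1 (adjusted p = 0.0543 to 0.0798), without day 1 array 2 for Atf3, Jun, Junb, Fos and Pmaip1 (adjusted p = 0.0939 to 0.266). The same happened without day 3 array 1 for Jun, Junb, Fos and Pmaip1 (adjusted p = 0.0818 to 0.211). Calls also ended with the 4 arrays fitted alone for Atf3, Jun, Junb, Fos and Pmaip1, with normexp background correction for Fos, with no filter on dim probes for Fos, with the scan day 2 arrays alone for Junb.

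Single genes named for their difference between the day 3 arrays moved in either direction. Aqp11, an aquaporin gene, stood at -1.53 and -1.15 at day 1 and -4.70 and -0.83 at day 3 and was lowest on day 3 array 1. Hes5, a Notch effector, stood at -1.86 and -2.58 at day 1 and -4.90 and -1.69 at day 3, again lowest on array 1. Cyp1a1, the main target of the aryl hydrocarbon receptor, stood at -1.83 and -3.96 at day 1 and 0.26 and -4.25 at day 3, higher on array 1 than on array 2 at both days. None of these 3 was called (adjusted p = 0.335, adjusted p = 0.398 and adjusted p = 0.649). Aqp11 and Hes5 were called lower without day 3 array 2 (adjusted p = 0.00139 and 0.00437). Cyp1a1 was called higher without day 3 array 2 (adjusted p = 0.0238).

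**Figure D4:**
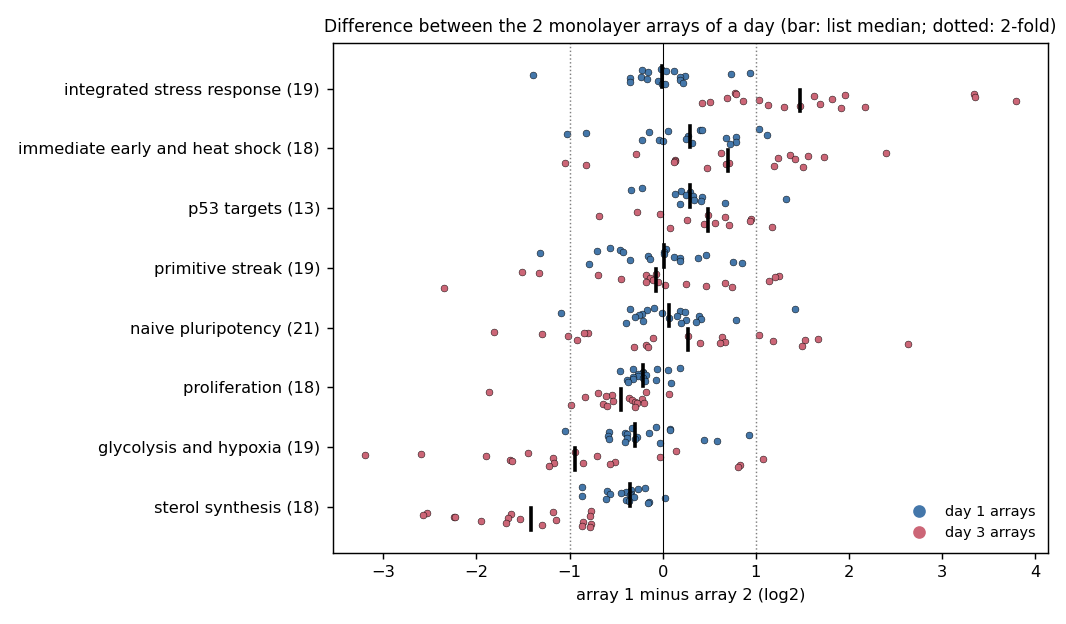
Difference between the 2 monolayer arrays of a day for each measured member of 8 gene lists (x axis: array 1 minus array 2, log2; y axis: list; blue day 1, red day 3, bars list medians, dotted lines 2-fold). At day 3 all 19 integrated stress response genes lie to the right of 0 and all 18 sterol synthesis genes to the left, with medians of 1.48 and -1.41, against -0.01 and -0.36 at day 1.

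Marker lists of other cell types are read beside the 12.4% of all genes called. A sum follows its brightest members, so list medians of the change are given as well, with the value relative to all genes in brackets. They were 0.05 (0.19) for fibroblast, 0.61 (0.75) for extraembryonic endoderm and 0.42 (0.56) for trophoblast genes. Blood and endothelium genes had 0.16 (0.30) and neural genes -0.48 (-0.35). Summed levels (linear, in units of the array's 75th percentile, over the measured members) of 14 fibroblast genes were 87.4 and 94.6 at day 1 and 162 and 116 at day 3. The 14 fibroblast genes included 1 that rose, Tagln, the smooth muscle transgelin gene, at 5.43 and 5.40 at day 1 and 6.88 and 6.22 at day 3 (1.14 ± 0.26, adjusted p = 0.0239), and Mgp was not well above background on any of the 4 arrays. The 18 extraembryonic endoderm genes summed to 93.1 and 77.1 at day 1 and 144 and 87.1 at day 3, with 1 that rose, the adaptor gene Dab2 (1.49 ± 0.36, adjusted p = 0.0301), and 1 that fell, Lama1 (-1.31 ± 0.34, adjusted p = 0.0355). The 8 trophoblast genes summed to 6.01 and 2.53 at day 1 and 8.99 and 4.61 at day 3, and limma called none of them (1 at an unadjusted p under 0.05). The 13 blood and endothelium genes, 4 of them called, summed to 4.04 and 4.74 at day 1 and 4.35 and 4.54 at day 3. Runx1 rose (0.93 ± 0.22, adjusted p = 0.0261), and Pecam1 (-3.35 ± 0.64, adjusted p = 0.0123), which ES cells express, Gata1 (-1.83 ± 0.39, adjusted p = 0.0195) and Tek (-1.50 ± 0.41, adjusted p = 0.0457) fell. The 13 neural genes, 4 of them called, summed to 13.3 and 11.1 at day 1 and 30.1 and 16.4 at day 3. They included 1 that rose, Nes (1.92 ± 0.38, adjusted p = 0.0143, array values 2.46 and 1.39), an intermediate filament gene, and 2 that fell, Pax6 (-2.26 ± 0.52, adjusted p = 0.0247, array values -1.64 and -2.88) and Tubb3 (-1.36 ± 0.27, adjusted p = 0.0138). The other call was that of Olig2, which like Olig3 and Irx3 was not well above background on any of the 4 arrays, so it gives no fall. Of 17 imprinted genes 2 rose and 1 fell: Plagl1 (3.00 ± 0.72, adjusted p = 0.0283, array values 4.17 and 1.82), Grb10 (1.54 ± 0.37, adjusted p = 0.0281) and Mest (-0.88 ± 0.24, adjusted p = 0.0466). The part of other cells in the results above was not tested, and fewer cells of a type and less RNA per cell cannot be told apart in these samples. The test was not passed without day 1 array 1 for Tagln, Dab2, Lama1, Pecam1, Gata1, Tek, Pax6, Tubb3, Plagl1, Grb10 and Mest (adjusted p = 0.0663 to 0.176), without day 1 array 2 for Tagln, Dab2, Lama1, Runx1, Pecam1, Gata1, Tek, Nes, Pax6, Tubb3, Plagl1, Grb10 and Mest (adjusted p = 0.0709 to 0.212). Others were lost without day 3 array 1 for Tagln, Dab2, Lama1, Runx1, Pecam1, Gata1, Tek, Nes, Tubb3, Plagl1, Grb10 and Mest (adjusted p = 0.0535 to 0.161), without day 3 array 2 for Tek, Pax6 and Grb10 (adjusted p = 0.0582 to 0.0859). Other alternatives that ended calls did so with the 4 arrays fitted alone for Tagln, Dab2, Lama1, Runx1, Gata1, Tek, Nes, Pax6, Tubb3, Plagl1, Grb10 and Mest, with normexp background correction for Gata1, with quantile normalization for Mest, in the authors' values for Mest, with no filter on dim probes for Dab2, Lama1, Tek and Mest, with the mean of probes for Dab2 and Runx1, with the scan day 2 arrays alone for Lama1, Runx1, Tek, Pax6, Plagl1 and Grb10. With the clone number as a replicate block, Tek was not called (adjusted p = 0.0554) and Mest was not called (adjusted p = 0.0573).

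The same interval in embryoid bodies, measured on another slide scanned on the same day and with no array in common, shows where the monolayer differs. EB day 3 against day 1 gave 961 calls (5.42%), 548 higher (3.09%) and 413 lower (2.33%). The higher calls shared 216 genes, 21.1% of the monolayer calls and 39.4% of the EB calls. The lower calls shared 298, 25.3% and 72.2%. The difference between the 2 day effects was called for 43 genes (0.243%), 16 with the larger value in the monolayer (0.0902%) and 27 in EB (0.152%). That count was 6 with no filter on dim probes, all with the larger value in EB, so that the calls of the 16 with the larger value in the monolayer ended there. It was 9 with the 8 arrays fitted alone and between 0 and 297 with 1 array left out (297 without monolayer day 3 array 2). Limma called 0 without monolayer day 1 array 2 or without either EB day 1 array, where 1244, 1302 and 1268 genes had an unadjusted p under 0.05. Naive genes fell in both formats (15 of 21 in the monolayer, 9 of 21 in EB, medians -2.49 and -1.71). T changed by 4.46 ± 0.63 in the monolayer and 4.39 ± 0.63, adjusted p = 0.00772 in EB, and the difference was 0.08 ± 0.89, adjusted p = 0.992.

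Among the listed genes 7 had a called difference: Mixl1, Mesp2, Gata6, Sox17, Msx1, Cfc1 and Mgp. Mixl1 changed by 0.59 ± 0.43 in the monolayer and by 5.47 ± 0.43, adjusted p = 0.00118 in EB, a difference of -4.88 ± 0.61, adjusted p = 0.0285. Gata6, a factor of endoderm and cardiac mesoderm, changed by 1.28 ± 0.45 and by 5.80 ± 0.45, adjusted p = 0.00118 (difference -4.52 ± 0.64, adjusted p = 0.0285), and 1 of its 2 other probes moved the other way in the monolayer. Sox17 changed by 0.98 ± 0.52 and by 5.71 ± 0.52, adjusted p = 0.002 (difference -4.73 ± 0.73, adjusted p = 0.0442), and Mesp2 by -0.49 ± 0.41 and by 3.66 ± 0.41, adjusted p = 0.00327 (difference -4.14 ± 0.59, adjusted p = 0.0285). The BMP target gene Msx1 changed by 0.58 ± 0.32 and by 3.53 ± 0.32, adjusted p = 0.002 (difference -2.95 ± 0.45, adjusted p = 0.0442), and Cfc1, a Nodal coreceptor gene, by 0.14 ± 0.31 and by 3.30 ± 0.31, adjusted p = 0.00205 (difference -3.16 ± 0.44, adjusted p = 0.0285). Mesp1 rose in both (EB 8.64 ± 0.68, adjusted p = 0.00118), and the difference was not called (-4.73 ± 0.96, adjusted p = 0.123), nor was that of Wnt3a (EB 4.33 ± 0.59, adjusted p = 0.00636, difference -4.71 ± 0.84, adjusted p = 0.0767). The BMP list had no call in the monolayer and 6 higher in EB, Msx1 being the 1 member with a called difference. The integrated stress response list, with 11 higher in the monolayer, had 1 lower in EB (Gdf15, -1.85 ± 0.43, adjusted p = 0.0426) and no called difference, Chac1 for example at 5.21 ± 1.60, adjusted p = 0.289. Outside the lists the cell adhesion gene Ceacam1 fell in the monolayer, at 0.68 and 0.28 at day 1 and -4.97 and -3.96 at day 3, and changed by -1.18 ± 0.38, adjusted p = 0.114 in EB (difference -3.76 ± 0.53, adjusted p = 0.0285), and 1 of its 2 other probes moved the other way in the monolayer. Slc7a10, an amino acid transporter gene, rose in the monolayer, at least 4.3-fold higher with both day 1 arrays not well above background (difference 3.64 ± 0.50, adjusted p = 0.0285). The histocompatibility genes H2-D4 and H2-T-ps rose in the monolayer, with EB changes of 0.00 and -0.01. H2-D4 stood at -0.91 and -0.69 at day 1 and 1.78 and 1.56 at day 3 (difference 2.47 ± 0.38, adjusted p = 0.0442) and H2-T-ps at 1.22 and 1.07 at day 1 and 3.82 and 3.39 at day 3 (difference 2.47 ± 0.33, adjusted p = 0.0285), and such genes share sequence with near-identical copies. Spink1, which encodes a protease inhibitor, fell in the monolayer (-2.66 ± 0.53, adjusted p = 0.0138) and rose in EB (5.07 ± 0.53, adjusted p = 0.00254).

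**Figure D5:**
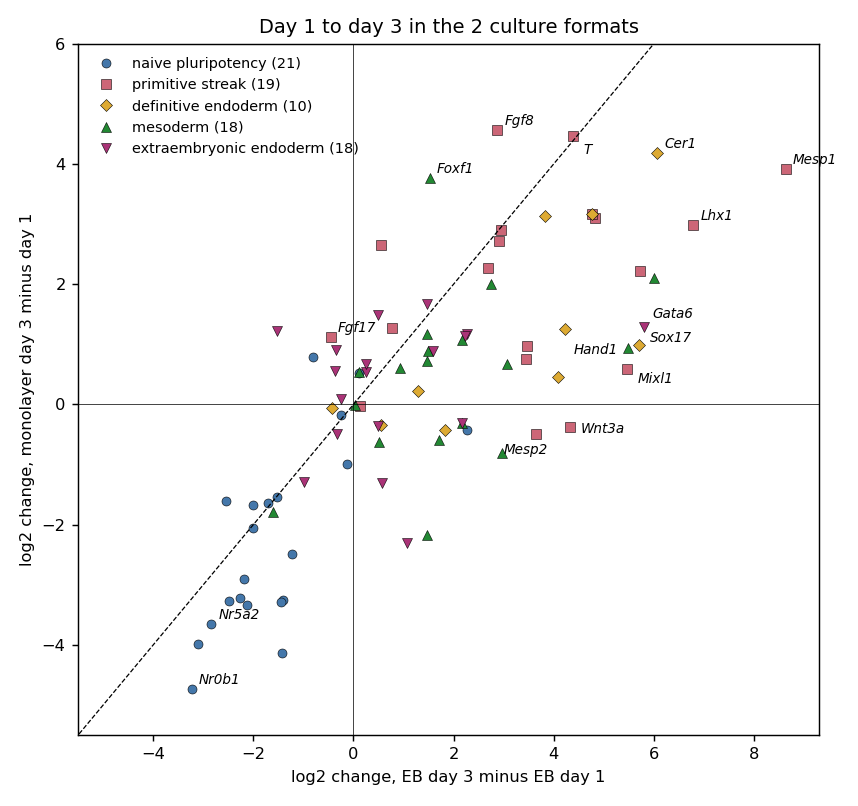
Change between day 1 and day 3 in the monolayer (y axis) against EB (x axis), both log2, for the members of 5 gene lists (dashed line: equal change). Naive genes lie at the lower left, T near the line, and Mixl1, Gata6, Sox17 and Wnt3a far to the right of it.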

How the data were processed

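RNA was measured on 12 Agilent whole mouse genome arrays with 1 colour (Cy3). The RNA was isolated with an RNeasy micro kit and labelled from low input, per the labels' protocols. The deposited spot intensity is Feature Extraction's processed signal, which is background-subtracted and spatially detrended with no normalization between arrays, per the file headers. The submitters' processing notes name Agilent Feature Extraction 9.5.1.1. The deposited value table holds the authors' intensity after the distributions of all arrays were made equal. Its columns correlated with the scanner values, with a lowest coefficient of 0.9979. The deposited flags (other, 0 or 1 per spot) mark spots well above background, saturated spots and outliers.

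Signals were taken to log2 and the 75th percentile of each array was subtracted. Outlier spots were left out, spots of a probe were averaged, and probes not well above background on both arrays of any group were left out. A gene was read from its probe with the highest mean. Genes were named through RefSeq accessions or symbols, and otherwise by the file (8475 of 41174 probes). Limma 3.58.1 in R 4.3.3 fitted 6 group means to all 12 arrays, with Benjamini-Hochberg adjustment over 17729 genes. The number of arrays, 2 a group, limits the precision. On simulated data for this comparison of 17729 genes, limma recovered 9 of 67 genes changed by 1 on the log2 scale, 55 of 67 changed by 2 and 64 of 66 changed by 3, with 10 false calls. The simulated noise was normal, with the same spread for a gene in every group. The real day 3 arrays lay further apart than the day 1 arrays, so the simulation cannot give the error rate of this comparison.

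The clone number in the labels was taken to pair arrays across days. Across genes the clone difference at monolayer day 1 and day 3 correlated at 0.226, and the 15 pairs of groups ranged from -0.155 to 0.226. A fit with the clone as a replicate block was an alternative, beside other background corrections, normalizations, filters, probe summaries, priors and sample sets, and the fit without each array. The arrays of the 2 formats lay on different slides, so slide and format cannot be told apart.

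The comparison, its gene lists and its markers were chosen with earlier results of these data known. Named genes are the marker panel, the 15 largest called changes in each direction, up to 6 called members of each list, the 8 largest differences between the day 3 arrays each way, the 5 largest called differences between formats each way, and members of lists with 5 or fewer measured members. Of 148 genes named, 114 follow from this rule, some genes that the rule gives are left out, and the other 34 were chosen after their values were seen. Some results are not reported here.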

Additional observations from a re-analysis of the deposited data

Results flagged for a closer look

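The difference between the day effect in the monolayer and that in EB passed limma's test (adjusted p under 0.05) for 12 of the genes named above, with 2 arrays a group. In the results that follow a negative value means a lower change in the monolayer. Mixl1 had -4.88 ± 0.61, adjusted p = 0.0285, Mesp2 -4.14 ± 0.59, adjusted p = 0.0285, Gata6 -4.52 ± 0.64, adjusted p = 0.0285 and Sox17 -4.73 ± 0.73, adjusted p = 0.0442. Msx1 had -2.95 ± 0.45, adjusted p = 0.0442 and Cfc1 -3.16 ± 0.44, adjusted p = 0.0285. Ceacam1 fell in the monolayer (-3.76 ± 0.53, adjusted p = 0.0285), and Spink1 fell there and rose in EB (-7.74 ± 0.74, adjusted p = 0.0129). H2-D4 (2.47 ± 0.38, adjusted p = 0.0442), H2-T-ps (2.47 ± 0.33, adjusted p = 0.0285) and Slc7a10 (3.64 ± 0.50, adjusted p = 0.0285) rose in the monolayer. Mgp, not well above background on any monolayer array, had 3.65 ± 0.48, adjusted p = 0.0285 and fell in EB. Slide and format cannot be told apart in these differences.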

How the results depend on the processing

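No call of the 98 named genes called by limma changed direction in any alternative that tested the gene. In every alternative that tested the gene, 22 of these calls were kept. Among the 22, Calml4, Edn2, Foxb1, Notum and Slc7a10 were not tested with the strict filter on dim probes. That filter also left out Cer1, Mesp1, Fgf21, Foxf1, Hoxd1, Gjb2, Pecam1, Gata1, Tek and Pax6. The called genes Dazl, Hormad1, Stra8, Zscan4c, Usp17la and Olig2 were left out by it as well. With the 4 arrays fitted alone 670 genes were called, 262 higher and 408 lower, and 53 named calls ended. The calls ranged from 378 (without day 1 array 2) to 4757 (without day 3 array 2) with 1 array left out, the higher ones from 137 to 1871 and the lower ones from 241 to 2886. With the clone as a replicate block, the count was 2106 (1014 higher, 1092 lower), 5 named calls ended and no other named call changed. Of the 50 named genes not called, 21 were called in at least 1 alternative, 18 of them without day 3 array 2. EB calls numbered 571 with no filter on dim probes and from 104 to 995 with 1 array left out, with 211, 104 and 108 without day 1 array 1, day 1 array 2 and day 3 array 2. Called differences between formats numbered 6 with no filter (0 with the larger value in the monolayer), 26 with the strict filter, 9 with the arrays of the 4 groups alone, which are also the scan day 2 arrays alone, a setting chosen after seeing the data, and from 0 to 297 with 1 array left out. Genes at least 2-fold apart between the day 3 arrays numbered 1469 with normexp and 2088 with the strict filter, which tested 13483 genes. In a fit with 1 array left out the lone array of its group is assumed to vary like the other groups. The cause was not tested.

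Some changes that were not called turned direction. With normexp the changes were -0.0593 for Cfc1, -0.0335 for Hand2, 0.0503 for Klf2, -0.21 for Mgp and -0.0402 for Tbx20. Quantile normalization gave 0.0856 for Klf2 and 0.0257 for Nkx1-2, the authors' values 0.0849 and 0.0260. With the mean of probes Klf2, not called otherwise, changed by -1.47 and was called lower (adjusted p = 0.0320). There Nkx1-2 changed by 0.48 and Srebf2 by -0.27. With 1 array left out the changes ranged from -3.36 to 0.51 for Aqp11, -0.19 to 3.16 for Atf5, -2.60 to 0.60 for Bnip3, -0.0366 to 0.32 for Cfc1, -1.35 to 3.15 for Cyp1a1, -1.91 to 0.63 for Dhcr7, -1.88 to 0.69 for Fdps and -0.11 to 0.93 for Gdf15. They ranged from -2.68 to 0.53 for Hes5, -2.17 to 0.0609 for Idi1, -0.66 to 2.02 for Kdr, -0.11 to 0.0501 for Nkx1-2, -1.94 to 0.0463 for Olig3, -0.20 to 0.67 for Srebf2, -1.75 to 0.88 for Tbx3, -0.81 to 0.0449 for Wnt3a and -1.15 to 0.57 for Zfp352.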
